A study of Mus musculus with 18 samples.

Results

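The gene expression of MEL cells, a mouse erythroleukemia line, was compared between cultures taken before treatment (day 0) and cultures kept for 5 days in medium with 2% DMSO (day 5). The genes described are those with at least 1 FPKM in at least 2 of the 4 RNA-seq libraries, which were 10736 of the 26599 genes in the deposited table. FPKM are fragment counts scaled by transcript length and library size, so levels of different genes can be set side by side per length. Each day had 2 libraries of stranded RNA-seq, named biological replicates in the labels. Both days used the same line from ATCC in RPMI medium with serum, with no other agent or genetic change named. The labels say that most cells were positive for hemoglobin by color and by benzidine staining after DMSO. A culture kept for 5 days without DMSO was not among these libraries, so DMSO and time in culture cannot be told apart. Expression per cell and the share of cells that respond cannot be told apart in bulk RNA either.

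MEL cells are proerythroblast-like cells arrested in self-renewal by a virus-induced leukemia. DMSO releases that arrest. The cells then divide a few more times, load themselves with hemoglobin and leave the cell cycle, a sequence that resembles terminal maturation of red cells. Maturing red cells are known to shrink their nucleolus, condense their chromatin, and clear organelles through the ubiquitin system and lysosomes while a few mRNAs come to fill the transcript pool.

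The 4 libraries summed to between 758150 and 787494 FPKM and held 10227 to 10601 genes at 1 FPKM or more. FPKM carry no read counts, so depth is unknown. Red cell markers fitted the label. Together they reached 2014 and 1443 FPKM before treatment and 30797 and 26188 FPKM on day 5, and 10 of 13 rose, with 0 falling. The defining genes of mast cells (3 of 3) and neutrophils (4 of 4) were listed at 0 in every library. Of the macrophage markers 4 of 5, and of the T and B cell markers 5 of 5, stayed under 0.5 FPKM in every library. Megakaryocyte markers summed to 42.0 and 10.9 FPKM on day 0 and to 33.9 and 18.7 on day 5. The libraries of 1 day differed at least 2-fold in 6.85% of the tested genes on day 0 and in 9.54% on day 5, against 24.2% to 30.95% between libraries of different days.

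Day 5 was compared with day 0 gene by gene on log2(FPKM + 1) with limma, a linear model that borrows spread across genes. In what follows a gene "rose" or "fell" when its Benjamini-Hochberg adjusted p was under 0.05. This held for 1989 genes (18.5% of those tested), of which 1150 rose (10.7%) and 839 fell (7.81%). The median difference over all tested genes was 0.15 on the log2 scale. After quantile normalization, which moved that median to 0.01, 814 rose and 895 fell. After centring each library on its own median, which moved it to -0.09, 714 rose and 1389 fell. So the split between rising and falling genes depends on the scaling. All 1989 genes kept their direction under both. For median centring this was fixed in advance, as it shifts every gene alike and by less than the smallest called difference, 0.61. The calls also rest on all 4 libraries and on the filter. With any 1 library left out at most 13 genes passed, and with no filter on low values 237 did. Genes named below as rising or falling were also called under both other scalings, a pseudocount of 0.1, a filter of 5 FPKM (where they passed that filter) and with mitochondrially encoded genes removed, unless said otherwise.

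Among the called genes, 968 risers and 617 fallers differed by at least 1 on the log2 scale, and 239 and 144 by at least 2. Only 22 risers and 19 fallers differed by 4 or more. The median size of a called difference was 1.41 for risers and 1.29 for fallers, and it was 0.43 for genes that did not pass. Both day 5 libraries lay above both day 0 libraries for 40.2% of the tested genes and below them for 27% of them. The changes were therefore broad and mostly of moderate size. The largest fall was that of Car1, a carbonic anhydrase gene, at 924 and 1014 FPKM on day 0 and 3.11 and 3.49 on day 5 (log2 difference -7.82 ± 0.17 SE, limma adjusted p = 0.000407).

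**Figure D1:**
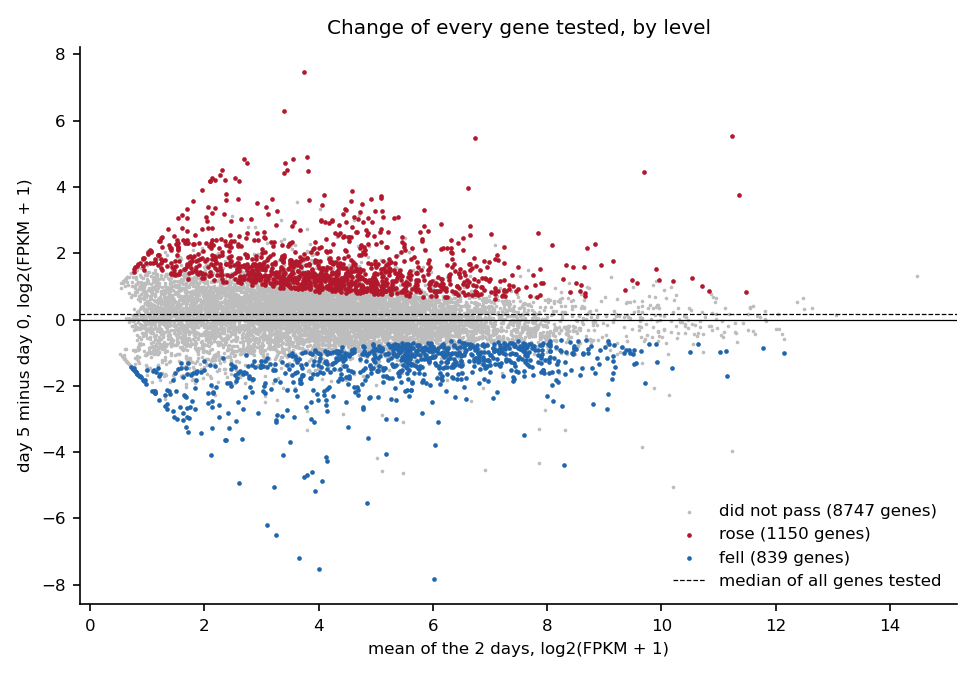
Each point is 1 of the 10736 tested genes, with the mean of both days on log2(FPKM + 1) across and the log2 difference of day 5 and day 0 upward. The 1150 genes that rose (red) sit mostly at low and middle levels and the 839 that fell (blue) reach further into high levels, while the dashed line marks the median of all genes at 0.15.

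How the changes were spread over levels was asked by splitting the genes into 7 classes by their mean FPKM. Of the 2465 genes at 3 to 10 FPKM, 270 rose and 93 fell. Of the 828 genes at 100 to 300 FPKM, 82 rose and 178 fell, and of the 261 genes at 300 to 1000 FPKM, 20 rose and 68 fell. The 119 genes at 1000 FPKM or more had 10 in each direction. The median log2 difference ran from 0.36 at 3 to 10 FPKM to -0.28 at 100 to 300 FPKM. The counts behind this opposition of scarce and abundant genes depend on the scaling. After median centring 167 rose and 160 fell at 3 to 10 FPKM, and the abundant classes held still more falling genes, with 48 rising and 267 falling at 100 to 300 FPKM. After quantile normalization 127 rose and 157 fell at 3 to 10 FPKM, and 106 rose and 96 fell at 100 to 300 FPKM. That method gives every library the same distribution of levels, so it takes out such an opposition by construction and cannot test it. Within each library as deposited the transcript pool also changed its shape. These shares do not move with a common scale factor, but quantile normalization removes them by construction. The 10 most abundant genes held 8.005% and 9.14% of all FPKM on day 0 and 15.1% and 14.2% on day 5. Fewer genes were needed to reach 50% of the pool on day 5, 214 and 215 against 273 and 282.

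**Figure D2:**
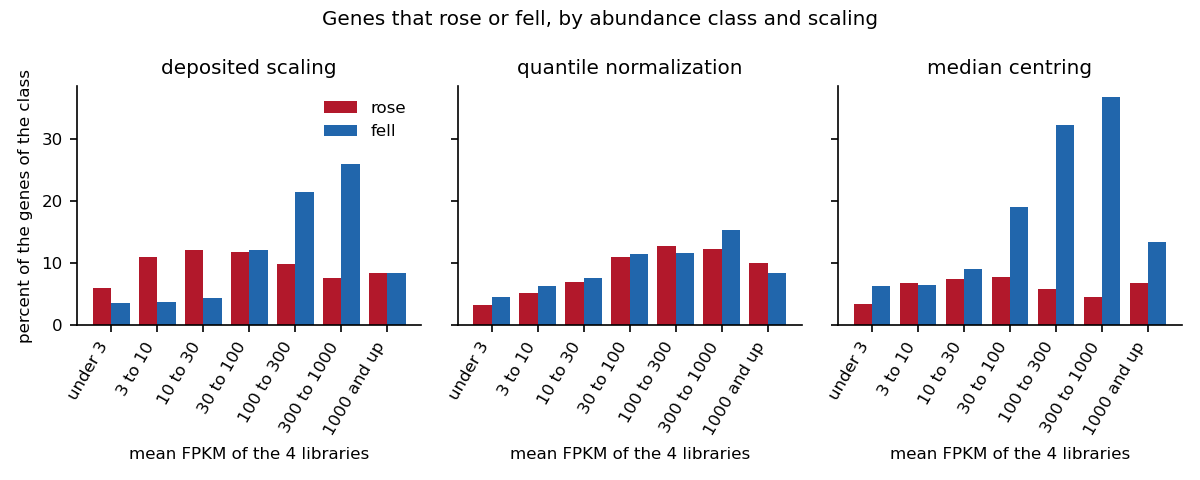
Bars give the percent of the genes of each abundance class (mean FPKM of the 4 libraries) that rose (red) or fell (blue) on day 5, with the deposited scaling, after quantile normalization and after median centring. With the deposited scaling falling genes outnumber rising ones at 100 to 300 FPKM (178 against 82), as they do after median centring (267 against 48). After quantile normalization, which gives the libraries equal distributions by construction, they do not (96 against 106).

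The top of the pool was made of globin, mitochondrial and ribosomal transcripts. Npm1, whose product is a major nucleolar chaperone of ribosome assembly, stood at 3859.8 and 4287 FPKM on day 0 and 1146 and 1362 on day 5 (log2 difference -1.70 ± 0.20 SE, limma adjusted p = 0.0126). It was thus among the 20 most abundant genes of day 0 and not of day 5. Hspe1, the small partner of the mitochondrial chaperonin, had 1489.5 and 1802 FPKM on day 0 and 427 and 432 on day 5 (log2 difference -1.93 ± 0.18 SE, limma adjusted p = 0.00838). The globin genes moved the other way. Hbb-b1, an adult beta globin gene, was at 903 and 549.8 FPKM on day 0 and 10387 and 8734 on day 5 (log2 difference 3.75 ± 0.30 SE, limma adjusted p = 0.00595). Between these extremes most of the ribosomal top list did not pass the test. Eef1a1, the factor that brings charged tRNA to the ribosome, measured 6156 and 5221 FPKM on day 0 and 7562 and 6768 on day 5 (log2 difference 0.34 ± 0.24 SE, limma adjusted p = 0.341), a difference that was -0.21 after quantile normalization. One predicted gene, Gm10181, was listed at 19897 FPKM in day 5 replicate 1 and at 0 or under 0.001 FPKM in the other libraries, and was not tested.

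Genes were next sorted by whether they were switched on or off. A gene counted as off with under 0.5 FPKM in both libraries of a day and as on with at least 5 FPKM in both libraries of the other. This found 22 genes switched on and 17 switched off, and since the rule uses the same values as the comparison, the groups are described with no test. Genes with a plain name were 17 of the 22 and 11 of the 17, the rest having predicted gene or clone names. The median level on the expressing day was 17.7 FPKM for genes switched on and 8.24 FPKM for genes switched off. At least 10 FPKM on that day was reached by 16 of the 22 and by 6 of the 17. An FPKM near 0 may also be a failed estimate.

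Genes switched on included 3 that are known from red cells, picked out here after their values were seen. The Gypc entry ENSMUSG00000024380.6 was listed at 0.0105 and under 0.001 FPKM on day 0 and 155 and 199 on day 5 and was the strongest of them, but a second entry of the same gene is in the table and reads may have been divided between them. Epb4.2, which encodes protein 4.2 of the red cell membrane skeleton, stood at 0.384 and 0.236 FPKM on day 0 and 19.8 and 30.2 on day 5. Hbq1b, a theta globin gene, had 0.392 and 0 FPKM on day 0 and 23.8 and 17.98 on day 5. Both were near 0 in the untreated cultures and plainly present in both treated ones. A trio of apolipoprotein L genes came on together, with Apol11b the strongest at 0.385 and 0 FPKM on day 0 and 92.9 and 90.7 on day 5. Apol11a was at under 0.001 and 0 FPKM on day 0 and 17.5 and 19.1 on day 5. Apol10a measured under 0.001 and 0 FPKM on day 0 and 11.1 and 10.9 on day 5. These lie next to each other on the chromosome, as described below. Histone genes formed another set. Hist1h2bn was listed at under 0.001 and under 0.001 FPKM on day 0 and 32.7 and 14.4 on day 5, and Hist2h2aa1 and Hist2h2aa2 carry identical values, under 0.001 and under 0.001 FPKM on day 0 and 16.8 and 17.6 on day 5, so reads of these copies could not be parted. A few genes known for cilia and flagella also crossed the line, at low levels. Spef1, a sperm flagellar gene, stood at 0 and 0 FPKM on day 0 and 6.75 and 12.05 on day 5. Dnalc1, an axonemal dynein light chain gene, had 0.493 and 0.442 FPKM on day 0 and 9.34 and 11.7 on day 5, just under the off ceiling before treatment.

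The genes switched off had varied known roles. Gml was at 90.3 and 87.6 FPKM on day 0 and 0 and 0 on day 5, and its neighbour Hemt1 at 184 and 123.3 FPKM on day 0 and 0.0681 and 0 on day 5. Both were strong on day 0, well above the other plain-named genes of this set. Muc13, a transmembrane mucin, measured 34.1 and 30.9 FPKM on day 0 and 0 and 0.229 on day 5. Rnase6, a secreted ribonuclease of the RNase A family, stood at 12.7 and 21.8 FPKM on day 0 and 0 and 0.0678 on day 5. Siglec5, a sialic acid-binding lectin of white cells, had 7.47 and 9.01 FPKM on day 0 and 0 and 0.401 on day 5. Each of these 3 was present in both untreated cultures, Muc13 at the highest level and Siglec5 at the lowest. Hdc, which makes histamine, was at 10.2 and 6.13 FPKM on day 0 and 0.382 and 0.376 on day 5. Selplg, the selectin ligand of white cells, measured 6.09 and 6.25 FPKM on day 0 and 0.484 and 0.35 on day 5, the closest to the off ceiling among the plain-named genes switched off. Mst1r, a receptor tyrosine kinase, stood at 7.49 and 6.73 FPKM on day 0 and 0.346 and 0 on day 5. Just outside the rule was Fcgr2b, an inhibitory Fc receptor of white cells, at 6.38 and 4.599 FPKM on day 0 and 0 and 0 on day 5. Adc, on the rising side, also just missed it at 0.301 and 0 FPKM on day 0 and 6.99 and 4.39 on day 5.

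**Figure D3:**
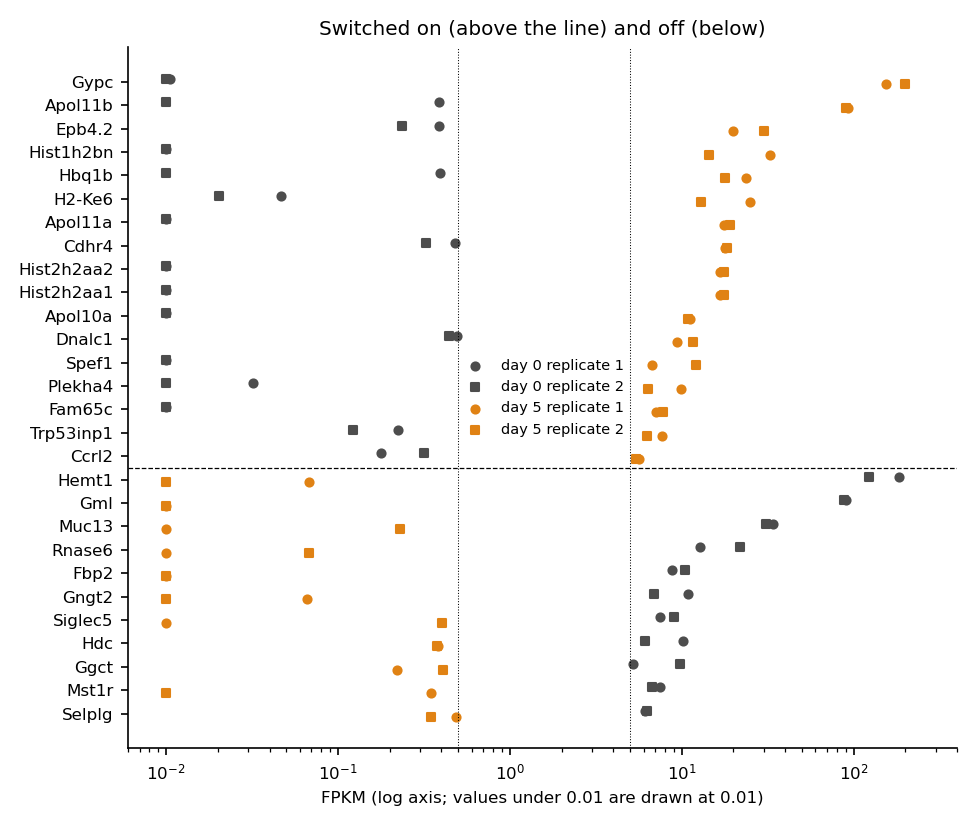
FPKM on a log axis of the 17 plain-named genes switched on (above the dashed line) and the 11 switched off (below it), with 1 point per library and values under 0.01 drawn at 0.01. Dotted lines mark the off ceiling of 0.5 and the on level of 5 FPKM, and by the rule no point lies between them.

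To see which functions moved, 99 gene lists covering 3115 of the tested genes were counted. In 13 lists at least 3 genes fell and 0 rose, in 12 at least 3 rose and 0 fell, and in 2 lists no gene passed. The count of each list is to be read beside the shares over all genes, 10.7% rising and 7.81% falling. The falling share also differed by level, at 4.44% of genes at 10 to 30 FPKM, 12.1% at 30 to 100 and 21.5% at 100 to 300. Some falling lists, such as initiation factors and splicing genes, had day 0 medians above 100 FPKM. Whether such lists fell more often than other genes of their level was not tested. The lists were joined into 12 broader groups. Of the 323 genes of protein synthesis 5 rose (1.55%) and 75 fell (23.2%), and of the 333 genes of RNA polymerases and processing 8 rose and 46 fell. On the other side, of the 365 genes of protein turnover 60 rose (16.4%) and 13 fell (3.56%), and of the 219 genes of membrane traffic 37 rose and 5 fell. Transporters counted 46 rising and 10 falling of 248. Each of these 5 majorities kept its side under both other scalings, with 56 falling and 5 rising genes of protein synthesis, 44 and 6 of RNA processing, 45 rising and 9 falling of protein turnover, 26 and 6 of membrane traffic and 28 and 17 of transporters after quantile normalization. After median centring the rising majorities were narrower, at 40 against 27, 19 against 13 and 26 against 23. For chromatin, transcription factors, and cytoskeleton and signalling the larger side turned with the scaling, so for these no direction is given for the group.

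**Figure D4:**
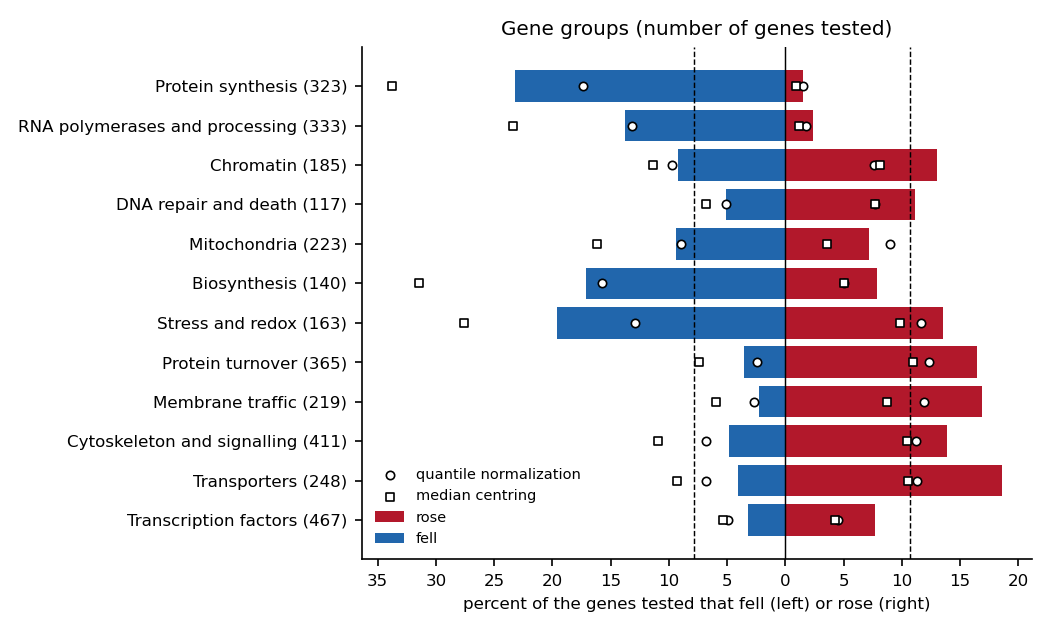
Bars give, for each of 12 gene groups, the percent of its tested genes that fell (left, blue) or rose (right, red), and dashed lines the same over all genes (7.81% and 10.7%). Circles and squares give the values after quantile normalization and after median centring, and protein synthesis falls and protein turnover rises on balance under each.

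Within protein synthesis the mitochondrial and the cytosolic ribosome gave different counts. Of 77 mitochondrial ribosomal protein genes 27 fell and 0 rose, with a median log2 difference of -0.64, and 54 had both day 5 libraries below both day 0 libraries, as had 27% of all genes. Mrps18b, of the small subunit, had 166 and 203 FPKM on day 0 and 27.1 and 46.01 on day 5 (log2 difference -2.35 ± 0.29 SE, limma adjusted p = 0.0134). Mrpl12, of the large subunit, was at 295 and 240.4 FPKM on day 0 and 68.8 and 95.5 on day 5 (log2 difference -1.70 ± 0.23 SE, limma adjusted p = 0.0148). Neither gene overlapped between the days. Of 76 cytosolic ribosomal protein genes, in contrast, 2 rose and 3 fell, with a median of -0.06. They held 15.7% and 13.3% of all FPKM on day 0 and 13.7% and 14.0% on day 5, so their share did not separate the days. A difference between both lists was not tested.

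The factors that work on the ribosome fell more often than they rose. Of 55 initiation factor genes 12 fell and 2 rose, against 8 and 2 after quantile normalization and 23 and 1 after median centring. Eif2s2, the beta subunit of the factor that carries the initiator tRNA, measured 333 and 439 FPKM on day 0 and 117 and 122 on day 5 (log2 difference -1.67 ± 0.19 SE, limma adjusted p = 0.0121). Eif2ak1, the heme-regulated kinase that restrains this same factor when heme is short, went the other way, at 18.4 and 19.4 FPKM on day 0 and 67.04 and 46.9 on day 5 (log2 difference 1.52 ± 0.24 SE, limma adjusted p = 0.0198). Of 13 elongation and release factor genes 5 fell, 2 after quantile normalization and 8 after median centring. Among the 5 was Gspt1, which releases finished chains, at 326 and 363 FPKM on day 0 and 101 and 161 on day 5 (log2 difference -1.42 ± 0.26 SE, limma adjusted p = 0.0265). Of 22 cytosolic tRNA synthetase genes 9 fell and 0 rose, with 5 falling after quantile normalization. Aimp1, a scaffold of the multisynthetase complex, fell most, at 124 and 122 FPKM on day 0 and 49.1 and 58.97 on day 5 (log2 difference -1.18 ± 0.18 SE, limma adjusted p = 0.0185). Gars, the glycine enzyme, stood at 242 and 232 FPKM on day 0 and 113 and 120.4 on day 5 (log2 difference -1.01 ± 0.15 SE, limma adjusted p = 0.0192). Of 56 tRNA and rRNA modification genes 11 fell and 1 rose. Of 8 host genes of small nucleolar RNAs 6 fell and 0 rose, with a median of -1.24, the lowest among the protein synthesis lists. Snhg3 had 574 and 889 FPKM on day 0 and 76.5 and 176 on day 5 (log2 difference -2.61 ± 0.44 SE, limma adjusted p = 0.0232), its day 5 libraries being apart by more than 2-fold but both far below day 0.

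Among the polymerases, 3 of 12 subunit genes of RNA polymerase I, which transcribes ribosomal RNA, fell, and 3 of 12 of polymerase II, with 0 rising in either and 5 falling in each after median centring. Polr1a, the largest subunit of polymerase I, was at 36.2 and 30.9 FPKM on day 0 and 15.4 and 17.3 on day 5 (log2 difference -0.99 ± 0.21 SE, limma adjusted p = 0.0352). Polr2h, shared by all nuclear polymerases, measured 68.6 and 71.5 FPKM on day 0 and 29.4 and 24.3 on day 5 (log2 difference -1.36 ± 0.19 SE, limma adjusted p = 0.0163). Of 20 polymerase III genes none fell and 1 rose, Polr3gl, which encodes the alternative form of a subunit, at 11.7 and 9.72 FPKM on day 0 and 43.2 and 28.6 on day 5 (log2 difference 1.63 ± 0.28 SE, limma adjusted p = 0.0234). Splicing genes fell in 15 of 59 cases and rose in none. Snrpa1, a protein of the U2 particle, stood at 282 and 314 FPKM on day 0 and 64.7 and 63.3 on day 5 (log2 difference -2.20 ± 0.16 SE, limma adjusted p = 0.00517), and its day 5 libraries were nearly equal. Sf3a2, of the same particle, had 164 and 181 FPKM on day 0 and 66.03 and 37.4 on day 5 (log2 difference -1.77 ± 0.29 SE, limma adjusted p = 0.0228). The list held 1.36% and 1.55% of all FPKM on day 0 and 0.868% and 0.868% on day 5. Of 27 nuclear import and export genes 5 fell and 0 rose, with 3 falling after quantile normalization and 10 after median centring. Ranbp1, which helps Ran release its cargo, was the largest at 1042 and 1245 FPKM on day 0 and 179 and 324 on day 5 (log2 difference -2.24 ± 0.31 SE, limma adjusted p = 0.0165). Of 27 nuclear pore genes 3 fell (11.1%, against 7.81% of all genes and 12.1% of those at 30 to 100 FPKM), 6 after median centring. Both day 5 libraries were below both day 0 libraries for 21 of them, as for 27% of all genes and 35.5% of those at 30 to 100 FPKM. Nup43, of the Nup107 complex, was at 71.7 and 65.6 FPKM on day 0 and 18.2 and 20.5 on day 5 (log2 difference -1.78 ± 0.18 SE, limma adjusted p = 0.0101). RNA helicases were mixed and near the shares of all genes, with 4 rising (7.69%) and 5 falling (9.62%) of 52, and 3 and 8 after quantile normalization. The largest fall was that of Ddx18, a nucleolar helicase, at 204 and 224 FPKM on day 0 and 44.2 and 71.8 on day 5 (log2 difference -1.90 ± 0.26 SE, limma adjusted p = 0.0161).

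Genes of building-block synthesis fell more often than they rose, 24 against 11 of 140, with 22 against 7 after quantile normalization and 44 against 7 after median centring. Of 20 serine, glycine and one-carbon genes 9 fell and 0 rose, with a median of -0.88, and 16 were apart downward, against 27% of all genes. Shmt1, which moves a carbon from serine to folate, measured 33.1 and 37.8 FPKM on day 0 and 8.48 and 7.43 on day 5 (log2 difference -2.02 ± 0.22 SE, limma adjusted p = 0.0107). Mthfd1, which interconverts folate forms, stood at 95.8 and 81.9 FPKM on day 0 and 27.04 and 29.1 on day 5 (log2 difference -1.63 ± 0.18 SE, limma adjusted p = 0.0114). Gcsh, of the glycine cleavage system, had 93.1 and 154 FPKM on day 0 and 33.8 and 26 on day 5 (log2 difference -1.98 ± 0.29 SE, limma adjusted p = 0.0187). Of 14 purine synthesis genes 6 fell and 1 rose. Gart, a 3-activity enzyme of the purine pathway, was at 126 and 133 FPKM on day 0 and 46.7 and 47.6 on day 5 (log2 difference -1.44 ± 0.16 SE, limma adjusted p = 0.011). The pathway held an exchange of related genes. Adss measured 41.5 and 59.9 FPKM on day 0 and 15.5 and 19.4 on day 5 (log2 difference -1.47 ± 0.26 SE, limma adjusted p = 0.0251). Adssl1, its paralog, stood at 26.6 and 15.7 FPKM on day 0 and 59.6 and 65.3 on day 5 (log2 difference 1.56 ± 0.29 SE, limma adjusted p = 0.0274). CTP synthases did the same in the pyrimidine list, where 5 of 17 fell and 2 rose, against 3 and 1 after quantile normalization. Ctps had 62.9 and 54.7 FPKM on day 0 and 28.5 and 25.4 on day 5 (log2 difference -1.10 ± 0.19 SE, limma adjusted p = 0.024). Ctps2 was at 27.5 and 28.5 FPKM on day 0 and 86.4 and 104 on day 5 (log2 difference 1.72 ± 0.18 SE, limma adjusted p = 0.0107), so the paralogs crossed, Ctps being the higher on day 0 and Ctps2 on day 5. Abat, which breaks down the transmitter GABA, was the largest riser among amino acid genes, at 1.27 and 0.856 FPKM on day 0 and 59.4 and 48.6 on day 5 (log2 difference 4.74 ± 0.26 SE, limma adjusted p = 0.00397). Of 23 phospholipid genes 4 rose and 0 fell, although 4 fell and 3 rose after median centring.

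The direction of mitochondrial genes depended on the scaling. Of 223 genes 16 rose and 21 fell, a count that became 20 and 20 after quantile normalization and 8 and 36 after median centring. In the import machinery 10 of 26 Tomm and Timm genes fell and 1 rose, against 8 and 0 after quantile normalization. Tomm40, the pore of the outer membrane, measured 127 and 129.9 FPKM on day 0 and 37.4 and 39.7 on day 5 (log2 difference -1.71 ± 0.16 SE, limma adjusted p = 0.00838). Tomm5, a small subunit of that complex, stood at 516 and 588 FPKM on day 0 and 84.1 and 148 on day 5 (log2 difference -2.29 ± 0.29 SE, limma adjusted p = 0.014). The import list held 0.518% and 0.525% of all FPKM on day 0 and 0.278% and 0.287% on day 5. Respiratory chain subunits mostly did not pass, with 3 rising and 2 falling of 36 in complex I and none called of 13 in complexes II and III. Cox6b2, an alternative subunit of complex IV, rose from a low level, at 3.93 and 6.705 FPKM on day 0 and 95.7 and 85.3 on day 5 (log2 difference 3.89 ± 0.28 SE, limma adjusted p = 0.00517). Atp5g1, which encodes a subunit of the membrane rotor of ATP synthase, fell, at 415 and 444 FPKM on day 0 and 118 and 163 on day 5 (log2 difference -1.62 ± 0.21 SE, limma adjusted p = 0.0141). Of 12 mitochondrially encoded genes tested 2 rose, and under median centring none did. Iron-sulfur genes went both ways, with 3 rising (10.7%, as over all genes) and 4 falling (14.3%) of 28. Over all genes 7.81% fell, and 12.1% of those at 30 to 100 FPKM, where the list medians lie, so the counts were near background. Glrx5, a glutaredoxin that passes on iron-sulfur clusters and is needed for heme synthesis in red cells, had 214 and 188 FPKM on day 0 and 529 and 419 on day 5 (log2 difference 1.23 ± 0.19 SE, limma adjusted p = 0.0199). Hspa9, the mitochondrial chaperone of the same pathway, was at 455 and 479 FPKM on day 0 and 171 and 141 on day 5 (log2 difference -1.58 ± 0.17 SE, limma adjusted p = 0.011).

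Stress genes went both ways. The cytosolic chaperonin and prefoldin fell in 6 of 13 genes and rose in 0, against 2 falling and 1 rising after quantile normalization. Tcp1, a chaperonin subunit, measured 445 and 461 FPKM on day 0 and 246 and 214 on day 5 (log2 difference -0.98 ± 0.16 SE, limma adjusted p = 0.023). Hypoxia-response genes fell in 9 of 23 cases and rose in 2. Ankrd37 stood at 155 and 55.9 FPKM on day 0 and 8.19 and 5.76 on day 5 (log2 difference -3.58 ± 0.50 SE, limma adjusted p = 0.0165). Slc2a1, the main glucose transporter of many cells, had 62.05 and 36.9 FPKM on day 0 and 11.5 and 10.3 on day 5 (log2 difference -2.04 ± 0.30 SE, limma adjusted p = 0.0178). Hk2, a hexokinase, was at 45.96 and 26.4 FPKM on day 0 and 6.71 and 8.06 on day 5 (log2 difference -2.10 ± 0.32 SE, limma adjusted p = 0.0196). In these 3 the first day 0 replicate was higher than the second, as was the share of the whole list, 0.454% and 0.284% of FPKM on day 0 against 0.190% and 0.187% on day 5. Both day 0 libraries still exceeded both day 5 ones. Redox genes were mixed, with 6 rising and 4 falling of 29. Prdx2, the abundant peroxiredoxin of red cells, measured 588 and 542 FPKM on day 0 and 1824 and 1453 on day 5 (log2 difference 1.53 ± 0.20 SE, limma adjusted p = 0.014). Gss, which makes glutathione, stood at 10.3 and 13.7 FPKM on day 0 and 61.04 and 54.1 on day 5 (log2 difference 2.18 ± 0.22 SE, limma adjusted p = 0.01). Txnip, which binds thioredoxin, had 46.7 and 34.8 FPKM on day 0 and 284 and 201 on day 5 (log2 difference 2.54 ± 0.25 SE, limma adjusted p = 0.00915). These 3 rose without overlap between the days. Glrx3, a cytosolic glutaredoxin, fell, at 205 and 189 FPKM on day 0 and 84.8 and 91.9 on day 5 (log2 difference -1.15 ± 0.16 SE, limma adjusted p = 0.0161). Among the ATF4 and integrated stress genes 7 rose and 4 fell of 25, against 6 and 1 after quantile normalization. Ppp1r15a, which ends this response by calling a phosphatase, was at 19.1 and 15.5 FPKM on day 0 and 53.8 and 61.1 on day 5 (log2 difference 1.68 ± 0.21 SE, limma adjusted p = 0.0131). Stc2 fell, at 20.9 and 13.4 FPKM on day 0 and 2.67 and 3.01 on day 5 (log2 difference -2.21 ± 0.31 SE, limma adjusted p = 0.0168). The metallothioneins, small metal-binding proteins, fell steeply. Mt1 measured 1019 and 1141 FPKM on day 0 and 168 and 197 on day 5 (log2 difference -2.56 ± 0.18 SE, limma adjusted p = 0.00504). Mt2 stood at 561 and 738 FPKM on day 0 and 54.8 and 58.6 on day 5 (log2 difference -3.48 ± 0.19 SE, limma adjusted p = 0.00397).

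Within protein turnover, the lists of ubiquitin ligase genes held more rising than falling genes. Over all genes 10.7% rose and 7.81% fell. Of 84 F-box, cullin and adaptor genes 13 rose (15.5%) and 0 fell. Of 34 Trim genes 11 rose (32.4%) and 0 fell, and of 60 Ring finger genes 10 rose (16.7%) and 2 fell. After quantile normalization these were 7 and 0, 7 and 0, and 9 and 2. Trim10, known from red cell maturation, had 12.8 and 10.99 FPKM on day 0 and 83.6 and 64.8 on day 5 (log2 difference 2.53 ± 0.22 SE, limma adjusted p = 0.00703). Klhl28, a cullin adaptor, was at 2.26 and 2.24 FPKM on day 0 and 10.2 and 11.2 on day 5 (log2 difference 1.85 ± 0.27 SE, limma adjusted p = 0.0178). Rnf11 measured 13.1 and 12.2 FPKM on day 0 and 29.3 and 46.02 on day 5 (log2 difference 1.47 ± 0.27 SE, limma adjusted p = 0.0286). Ubiquitin-conjugating enzymes went both ways, with 3 in each direction of 32 (9.38% each), near the shares of all genes. Ube2o, which tags ribosomal proteins for removal in maturing red cells, stood at 17.3 and 10.8 FPKM on day 0 and 39.1 and 39.2 on day 5 (log2 difference 1.45 ± 0.27 SE, limma adjusted p = 0.0286). Ube2h, a red cell partner of a ubiquitin ligase, had 6.03 and 4.405 FPKM on day 0 and 17.6 and 21.6 on day 5 (log2 difference 1.73 ± 0.27 SE, limma adjusted p = 0.0201). Ube2l6, the conjugating enzyme of the ubiquitin-like ISG15, was at 22.4 and 20.2 FPKM on day 0 and 87.4 and 99.8 on day 5 (log2 difference 2.09 ± 0.18 SE, limma adjusted p = 0.00703). Each of these 3 was higher in both day 5 libraries than in either day 0 one. Ube2v2 fell, at 144 and 155 FPKM on day 0 and 50.7 and 76.95 on day 5 (log2 difference -1.25 ± 0.24 SE, limma adjusted p = 0.0304). Ubiquitin peptidases rose in 7 of 55 cases (12.7%, near the 10.7% of all genes) and fell in 2 (3.64%). Otub2 measured 6.67 and 5.52 FPKM on day 0 and 29.6 and 32.2 on day 5 (log2 difference 2.17 ± 0.23 SE, limma adjusted p = 0.0104). Of 18 genes of the proteasome core 2 fell (11.1%, against 7.81% of all genes) and 0 rose. Of 29 genes of its regulators 3 fell (10.3%) and 2 rose (6.90%). The medians of both lists lay between 100 and 300 FPKM, where 21.5% of all genes fell, so both falling shares were below that of their level. After median centring 4 core genes and 8 regulator genes fell. Psma1, a core subunit, stood at 444 and 551 FPKM on day 0 and 194 and 209 on day 5 (log2 difference -1.29 ± 0.18 SE, limma adjusted p = 0.0166). Psme4, an alternative activator, had 46.02 and 43.99 FPKM on day 0 and 89.9 and 97.1 on day 5 (log2 difference 1.04 ± 0.16 SE, limma adjusted p = 0.0206).

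Lysosome and vesicle lists held more rising than falling genes with the deposited scaling, although most of their members did not pass. The largest list, 68 sorting nexin, Vps and ESCRT genes, had 8 rising and 1 falling. It had 3 and 2 after quantile normalization, and turned to 2 and 5 after median centring. Of 32 COPI, COPII and Tmed genes 7 rose and 1 fell, against 5 and 1 after quantile normalization and 4 and 3 after median centring. Of 17 subunit and accessory genes of the vacuolar ATPase, the proton pump that acidifies lysosomes, 6 rose and 0 fell, and 5 rose under both other scalings. Atp6v0a1, of its membrane sector, was at 11.5 and 11.01 FPKM on day 0 and 29.9 and 35.3 on day 5 (log2 difference 1.45 ± 0.21 SE, limma adjusted p = 0.0178). Lysosomal hydrolase and membrane genes rose in 8 of 37 cases and fell in 1, against 2 and 1 after median centring. Psap, which activates lysosomal hydrolases, measured 54.7 and 41.3 FPKM on day 0 and 115 and 91.9 on day 5 (log2 difference 1.09 ± 0.22 SE, limma adjusted p = 0.0331). Of 42 Rab genes 5 rose (11.9%, near the 10.7% of all genes) and 0 fell, and 3 rose and 1 fell after median centring. Rab3d stood at 10.8 and 7.41 FPKM on day 0 and 68.4 and 53.99 on day 5 (log2 difference 2.63 ± 0.26 SE, limma adjusted p = 0.0095), the largest difference of the Rab list. Clathrin and adaptor genes rose in 6 of 31 cases and fell in 1, against 4 and 0 after quantile normalization and 2 and 1 after median centring. Epn1, which bends the membrane for clathrin, had 26.2 and 24.7 FPKM on day 0 and 100.1 and 94.1 on day 5 (log2 difference 1.89 ± 0.17 SE, limma adjusted p = 0.00738). SNAREs, which fuse membranes, rose in 5 of 30 cases and fell in 1, against 3 and 1 after median centring. Vamp8, a SNARE of late endosomes, was the member that fell, at 61.3 and 67.7 FPKM on day 0 and 31.8 and 29.6 on day 5 (log2 difference -1.05 ± 0.18 SE, limma adjusted p = 0.0233). Of 17 tetraspanins 7 rose and 1 fell. Tspan33, known from red cell precursors, was at 28.3 and 26.3 FPKM on day 0 and 129 and 111 on day 5 (log2 difference 2.09 ± 0.18 SE, limma adjusted p = 0.00664).

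Transporters gave some of the clearest single genes. Of 26 ABC transporters 10 rose and 0 fell, 6 and 0 after quantile normalization and 6 and 1 after median centring. Abcb10, a mitochondrial transporter needed for heme synthesis, measured 59.4 and 45.4 FPKM on day 0 and 307 and 322 on day 5 (log2 difference 2.58 ± 0.19 SE, limma adjusted p = 0.00552). Abcg2, which exports porphyrins, stood at 22.3 and 19.2 FPKM on day 0 and 161 and 144 on day 5 (log2 difference 2.82 ± 0.18 SE, limma adjusted p = 0.00478). Of 175 solute carriers 25 rose (14.3%, against 10.7% of all genes) and 6 fell (3.43%, against 7.81%). The counts were 18 and 12 after quantile normalization and 17 and 14 after median centring. Slc38a5, an amino acid transporter, had 61.97 and 78.04 FPKM on day 0 and 259 and 170.2 on day 5 (log2 difference 1.58 ± 0.26 SE, limma adjusted p = 0.0222). Slc6a9, a glycine transporter, was at 7.66 and 3.58 FPKM on day 0 and 30.02 and 106 on day 5 (log2 difference 3.19 ± 0.65 SE, limma adjusted p = 0.0331), and its day 5 libraries differed by more than 3-fold. Slc22a3, an organic cation transporter, fell, at 24.9 and 25.5 FPKM on day 0 and 2.34 and 2.82 on day 5 (log2 difference -2.88 ± 0.25 SE, limma adjusted p = 0.00683). Among pumps and channels, Atp2b4, a calcium pump of the red cell membrane, measured 6.299 and 5.29 FPKM on day 0 and 34.1 and 32.1 on day 5 (log2 difference 2.33 ± 0.22 SE, limma adjusted p = 0.00866). Aqp9, a water and glycerol channel, stood at 35.6 and 28.2 FPKM on day 0 and 3.4 and 3.08 on day 5 (log2 difference -2.95 ± 0.25 SE, limma adjusted p = 0.00669), one of the largest falls among transporters.

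**Figure D5:**
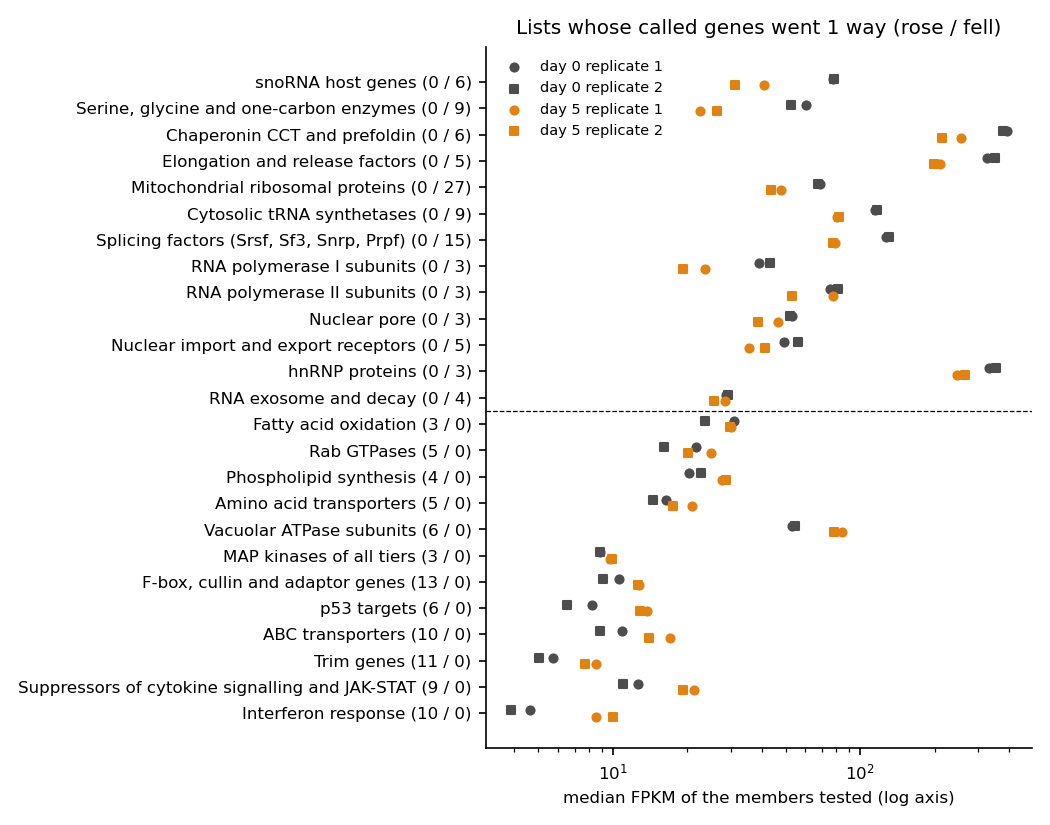
Median FPKM (log axis) of the tested members in each of the 4 libraries, for the 13 lists in which at least 3 genes fell and none rose (above the dashed line) and the 12 in which at least 3 rose and none fell (below it). In the snoRNA host list both day 5 medians lie below both day 0 medians, while lists such as fatty acid oxidation overlap although 3 of their genes rose.

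The cytokine and interferon lists held more rising than falling genes under each of the 3 scalings. Of 25 JAK-STAT and cytokine suppressor genes 9 rose and 0 fell, and after quantile normalization 6 rose and 2 fell. Pim1, a kinase induced by STAT5, had 46.4 and 31.1 FPKM on day 0 and 166 and 151 on day 5 (log2 difference 2.03 ± 0.24 SE, limma adjusted p = 0.0121). Cish, which dampens cytokine receptors, was at 3.201 and 18.1 FPKM on day 0 and 92.5 and 79.8 on day 5 (log2 difference 3.28 ± 0.70 SE, limma adjusted p = 0.0363), with a wide gap between the day 0 libraries. Of 28 interferon-response genes 10 rose and 0 fell, with a median of 1.04, and after median centring 8 rose and 3 fell. Ifi27l1 measured 7.98 and 3.99 FPKM on day 0 and 67.9 and 90.9 on day 5 (log2 difference 3.57 ± 0.35 SE, limma adjusted p = 0.00887). Isg15, the ubiquitin-like protein named above, stood at 2.504 and 1.03 FPKM on day 0 and 13.6 and 10.6 on day 5 (log2 difference 2.29 ± 0.38 SE, limma adjusted p = 0.0223). The whole list held 0.0511% and 0.0510% of FPKM on day 0 and 0.0771% and 0.0724% on day 5. Among phosphatases, Ptp4a3 had 14.8 and 11.9 FPKM on day 0 and 136 and 106 on day 5 (log2 difference 3.08 ± 0.22 SE, limma adjusted p = 0.00517). Ptpn6, also called SHP-1, a brake on blood cell receptors, fell, at 106 and 84.1 FPKM on day 0 and 26.6 and 22.5 on day 5 (log2 difference -1.90 ± 0.21 SE, limma adjusted p = 0.0108). Of the actin-binding list 3 rose and 4 fell of 37, against 3 and 8 after median centring. Gsn, which severs actin filaments, was at 3.296 and 1.44 FPKM on day 0 and 17.3 and 21.1 on day 5 (log2 difference 2.64 ± 0.36 SE, limma adjusted p = 0.016). Lcp1, the plastin of white cells, measured 13.1 and 4.72 FPKM on day 0 and 1.02 and 0.966 on day 5 (log2 difference -2.17 ± 0.49 SE, limma adjusted p = 0.0405).

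Of 27 target genes of p53, the factor that halts damaged cells, 6 rose and 0 fell. Btg2, a brake on proliferation, stood at 2.8 and 0.537 FPKM on day 0 and 73.2 and 70.3 on day 5 (log2 difference 4.91 ± 0.46 SE, limma adjusted p = 0.00837). Gadd45a, a growth arrest gene, had 7.43 and 6.52 FPKM on day 0 and 72.3 and 109 on day 5 (log2 difference 3.50 ± 0.26 SE, limma adjusted p = 0.00555). In the Bcl2 family 3 of 16 rose and 1 fell, and the risers had opposed roles. Bcl2l1, which encodes the survival protein BCL-XL of red cells, was at 4.05 and 3.71 FPKM on day 0 and 14.5 and 12.02 on day 5 (log2 difference 1.54 ± 0.26 SE, limma adjusted p = 0.0235). Bcl2l11, which encodes the death activator BIM, measured 2.29 and 1.41 FPKM on day 0 and 16.99 and 12.1 on day 5 (log2 difference 2.45 ± 0.33 SE, limma adjusted p = 0.0148). Bnip3, a mitophagy receptor that hypoxia induces, was the one that fell, at 182 and 120.4 FPKM on day 0 and 42.1 and 43.5 on day 5 (log2 difference -1.77 ± 0.24 SE, limma adjusted p = 0.0154).

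Histone genes also rose in part and fell in part. Of 27 canonical histone genes 6 rose and 3 fell. The summed level went down, as the whole list held 0.124% and 0.136% of all FPKM on day 0 and 0.0705% and 0.0950% on day 5. Hist2h2aa1 and Hist2h2aa2, both among the risers, carry identical values, so the counts are not of separate measurements. Reads of near-identical copies cannot be assigned with certainty, as for Hist1h2ao and Hist1h2ap, whose values are the same, 366 and 457 FPKM on day 0 and 116 and 173 on day 5 (log2 difference -1.52 ± 0.25 SE, limma adjusted p = 0.0222). Of 8 variants 4 rose and 1 fell, against 2 and 1 after median centring. H2afv, an H2A.Z gene, stood at 78 and 62.2 FPKM on day 0 and 289.6 and 249 on day 5 (log2 difference 1.93 ± 0.19 SE, limma adjusted p = 0.00943). H3f3a, an H3.3 gene, had 809 and 766 FPKM on day 0 and 1788 and 1749 on day 5 (log2 difference 1.17 ± 0.17 SE, limma adjusted p = 0.0178). H2afy, which encodes macroH2A1, fell, at 87.6 and 88.1 FPKM on day 0 and 47.9 and 40.7 on day 5 (log2 difference -0.98 ± 0.18 SE, limma adjusted p = 0.0265). The enzymes of chromatin held pairs in opposed directions. Suv420h2, which methylates histone H4, was at 35.1 and 14.2 FPKM on day 0 and 120.2 and 122 on day 5 (log2 difference 2.38 ± 0.42 SE, limma adjusted p = 0.0248). Smyd5, of the SMYD family, measured 30.2 and 30.3 FPKM on day 0 and 6.18 and 6.26 on day 5 (log2 difference -2.11 ± 0.21 SE, limma adjusted p = 0.00981). The days did not overlap for either of these methyltransferase genes. Hdac5 stood at 4.81 and 2.48 FPKM on day 0 and 15.05 and 16.6 on day 5 (log2 difference 1.90 ± 0.34 SE, limma adjusted p = 0.0256). Hdac7, a deacetylase of the same class, had 103 and 47.8 FPKM on day 0 and 14.8 and 11.7 on day 5 (log2 difference -2.33 ± 0.39 SE, limma adjusted p = 0.0231).

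Transcription factor lists had 36 rising and 15 falling of 467 genes (7.71% and 3.21%), against 10.7% and 7.81% of all genes. The median of the largest list, the Zfp genes, lay between 3 and 10 FPKM in each library. At that level 10.95% of all tested genes rose and 3.77% fell. The falling share of the group was thus near that of this level and the rising share below it, with no test. Of 281 Zfp genes 16 rose (5.69%) and 5 fell (1.78%), and 11 rose and 10 fell after quantile normalization. Zfp346 was at 9.72 and 5.53 FPKM on day 0 and 54.3 and 28.2 on day 5 (log2 difference 2.26 ± 0.41 SE, limma adjusted p = 0.0269), its day 5 libraries nearly 2-fold apart. Foxo3, a factor of red cell maturation and oxidative stress, measured 12.6 and 13.2 FPKM on day 0 and 32.3 and 34.6 on day 5 (log2 difference 1.30 ± 0.20 SE, limma adjusted p = 0.0192). Foxp1, a forkhead repressor, fell, at 41.3 and 45.7 FPKM on day 0 and 11.3 and 10.1 on day 5 (log2 difference -1.93 ± 0.20 SE, limma adjusted p = 0.0104). Etv5, of the ETS family, fell, at 5.92 and 4.4 FPKM on day 0 and 0.84 and 1.13 on day 5 (log2 difference -1.63 ± 0.33 SE, limma adjusted p = 0.0327).

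Risers and fallers were also compared in properties that played no part in choosing the genes. By RefSeq class, 1108 of 10041 protein-coding genes rose and 780 fell, against 9 and 20 of 158 pseudogenes. The median level of these pseudogenes was 39.7 FPKM, and reads of a pseudogene and its parent gene cannot be assigned with certainty. Of 282 long noncoding RNA genes 15 rose and 21 fell. Along the chromosome, the next tested gene had risen after 14.8% of risers, against 10.7% over all tested genes, and had fallen after 9.28% of fallers, against 7.81% over all, with no test of either difference. The longest runs were 4 genes. The run Ly6k, Gml, Hemt1 and Ly6e fell, with Ly6k at 143 and 166 FPKM on day 0 and 25.8 and 44.9 on day 5 (log2 difference -2.14 ± 0.29 SE, limma adjusted p = 0.0156). Ly6e stood at 54.3 and 72.2 FPKM on day 0 and 25.5 and 20.5 on day 5 (log2 difference -1.42 ± 0.23 SE, limma adjusted p = 0.0221). The run Apol10a, Apol11a, Apol11b and Apol8 rose, Apol8 being the weakest at 0.157 and 0 FPKM on day 0 and 2.67 and 2.01 on day 5, and not called with a pseudocount of 0.1 or after median centring. In the alpha globin region Nprl3, Hba-a1, Hbq1b and Hba-a2 rose in a row. Nprl3, the gene whose introns hold the alpha globin enhancers, had 2.01 and 3.11 FPKM on day 0 and 8.51 and 10.1 on day 5 (log2 difference 1.55 ± 0.31 SE, limma adjusted p = 0.0324), a call lost after quantile normalization.

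Promoters of 8429 tested genes, each 250 bases before to 50 bases after the RefSeq start on GRCm38.p6, were searched on both strands for short motifs. The GATA motif (AGATAA or TGATAA) was in 9.60% of tested promoters, in 11.8% of those that rose, in 19.7% (37 of 188) of those that rose by at least 2 on the log2 scale and in 16% of those that fell by at least 2. It was also in 19.4% (13 of 67) of mitochondrial ribosomal promoters, a list in which 0 genes rose. Over all 27025 promoters of the table, of tested genes or not, it was 18.95%. The share in strong risers was thus above that of tested promoters and near that of all promoters, and neither difference was tested. The E-box CACGTG, a known site of Myc and related factors, was in 10.9% of tested promoters, in 14.98% of those that fell and in 9.98% of those that rose. It was in 6% of those that fell by at least 2, in 7.46% of mitochondrial ribosomal promoters and in 7.24% of all promoters. The ETS motif CCGGAAGT was in 9.75% of tested promoters, in 1.60% (3 of 188) of those that rose by at least 2, in 5% of those that fell by at least 2 and in 4% of all promoters. The YY1 motif AAGATGGCG was in 11.9% (8 of 67) of mitochondrial ribosomal promoters, against 3.92% of tested ones and 1.49% of all promoters. These shares describe the letters in the window, with no test and no adjustment for base content. The median share of G and C was 61.3% in tested promoters, 60% in those that rose by at least 2 and 56% in those that fell by at least 2. The stretches below show, in capitals, the GATA motif or its reverse complement for the 3 largest risers that hold it, and CACGTG for the 3 largest fallers of protein synthesis that hold it. Only genes with a promoter here, an unrepeated symbol and the motif in the 250 bases before the start could be shown, which leaves out the Gypc entry. They are from RefSeq, GRCm38.p6, and read 5′ to 3′ on the strand of the gene.
Apol11b: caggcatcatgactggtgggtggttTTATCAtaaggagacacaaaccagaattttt
Hba-a1: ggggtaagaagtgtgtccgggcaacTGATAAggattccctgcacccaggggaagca
Alas2: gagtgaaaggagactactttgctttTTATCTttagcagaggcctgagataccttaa
Mrpl36: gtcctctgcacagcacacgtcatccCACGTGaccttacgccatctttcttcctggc
Mrpl20: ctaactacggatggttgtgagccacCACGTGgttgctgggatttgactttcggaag
Farsb: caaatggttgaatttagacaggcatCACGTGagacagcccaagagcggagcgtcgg
The Apol11b stretch is chr15:77643339-77643394 on the minus strand, with the motif 83 bases before the start. The Hba-a1 stretch is chr11:32283464-32283519 on the plus strand, with the motif 183 bases before the start. The Alas2 stretch is chrX:150547306-150547361 on the plus strand, with the motif 86 bases before the start. The Mrpl36 stretch is chr13:73330941-73330996 on the plus strand, with the motif 43 bases before the start. The Mrpl20 stretch is chr4:155802820-155802875 on the plus strand, with the motif 33 bases before the start. The Farsb stretch is chr1:78488906-78488961 on the minus strand, with the motif 39 bases before the start.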

How the data were processed

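RNA-seq of 4 MEL cell libraries was analysed, 2 per day, grouped by their titles. The authors deposited FPKM per gene and library as 1 table. The submitters' processing notes name Bowtie and mm9, and for the quantifier the tool was not given in the sources used here. Of the table's rows 324 share a symbol with another row. From the FPKM, log2(FPKM + 1) was fitted by day with limma 3.58.1 in R 4.3.3 (eBayes with trend, two-sided, Benjamini-Hochberg adjustment over 10736 genes). This scale understates the change of low genes. With means of these genes simulated, the fit recovered 25 of 100 genes given a log2 change of 1 and 96 of 100 given one of 2, with 8 false calls.

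The members, the gene lists (851 of 854 symbols found) and the tests were chosen with earlier results of these data known. Named genes were up to 3 called members per list and direction with the largest difference, provided that 1 or both day means reached 5 FPKM and the days did not overlap, then the 10 strongest plain-named genes switched on and off, the largest changes per abundance class, the 20 most abundant genes per day and the markers, of which a selection is printed. Those called under the other scalings and settings were preferred. Apol10a, Spef1, Dnalc1, Selplg, Ly6k, Ly6e, Apol8 and Nprl3 were chosen after their values were seen. RefSeq classes, gene order and promoters on GRCm38.p6 were matched by symbol for 10523 genes. PU.1 ChIP-seq, DNase-seq and ChIA-PET were not used here. Some genes that the rule names are not reported here.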

Additional observations from a re-analysis of the deposited data

How the results depend on the processing

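Against 1150 rising and 839 falling genes, 120 and 117 passed with no filter on low values, and 714 and 1389 after median centring. With 1 library left out, 0 to 2 genes rose and 0 to 11 fell, the 13 calls coming from the fit that lacks the second day 5 library. No gene passed without the first day 0 library (3038 at an unadjusted p under 0.05 in limma), the second day 0 library (2504) or the first day 5 library (3218), against 4148 with all 4. The lone library of a day was then assumed to vary like the other day. With a replicate block, 988 rose and 809 fell, and 1584 of the 1989 calls were shared. The replicate numbers pair the samples by name only, as the deviations of both days correlated across genes at 0.048. With mitochondrially encoded genes removed, 1904 of the 1987 calls still tested were shared. Genes that kept their calls under other settings were preferred for naming, so few losses among them were set in advance. The block ended no call of the 119 called genes named, nor did the removal of mitochondrially encoded genes. Testing with no filter ended 92 of them, and leaving out any 1 library all 119 or, without the second day 5 library, 115. Eef1a1, not called, had a log2 difference of -0.21 after quantile normalization.

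Of 59 lists with at least 5 calls, 7 turned their larger side after quantile normalization and 8 after median centring. The 22 genes switched on and 17 switched off became 14 and 9 with an off ceiling of 0.1 FPKM, 60 and 46 with an on level of 2 FPKM, and 14 and 6 with an on level of 10 FPKM. With 1 library left out they ranged from 25 to 61 and from 31 to 41, which a rule over fewer libraries makes larger by construction. FPKM without counts set no limit of detection here. In simulated data with few changed genes, none of them scarce, 25 of 100 genes given a log2 change of 1 were recovered. How often such differences were missed in the real data was not measured.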

Other observations

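Genes with large differences that did not pass were mostly set by 1 library. Of 17 genes with a difference of 3 or more on the log2 scale and an adjusted p of 0.05 or more in limma, 12 were lower and 5 higher on day 5. In 11 of the 12 the lowest value was that of day 5 replicate 1, and in 5 of the 5 the highest value was. These genes were chosen after their values were seen. Most of the lower ones are predicted genes or named ribosomal pseudogenes. Gm11032 was listed at 2767 and 1848 FPKM on day 0 and at 3.29 and 4991 on day 5. Rpl12-ps1 was listed at 127 and 434 FPKM on day 0 and at 0.0175 and 101 on day 5. Among the higher ones, Cbx8, a Polycomb gene, was listed at 3.39 and 2.82 FPKM on day 0 and at 292 and 2.70 on day 5, and Hyal1, a hyaluronidase gene, at 2.20 and 1.02 FPKM on day 0 and at 197 and 2.25 on day 5. The cause was not tested.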
